A study of Mus musculus with 12 samples.

Results

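Mdm4 and Mdm2 encode the main inhibitors of p53, and every row of these genes in the splicing and expression tables of cells depleted of the arginine methyltransferase PRMT5 was collected. The 2 genes, of 2704 named in the 4 tables, hold 10 rows of 3247. In neural progenitor cells (NPC) they hold 3 of 255 splicing events and 1 of 2416 genes listed as changed in expression. In embryonic fibroblasts (MEF) they hold 1 of 71 splicing events and 0 of 111 listed genes, of which 50.5% were higher with 4-hydroxytamoxifen (4-OHT). All cells carried the genotype Prmt5 F/FER on a mixed C57BL/6 and 129S1/SvlmJ background and came from E14.5 embryos. NPC grew as cortical neurospheres in medium holding EGF and FGF, whereas MEF were confluent cells of passage 1. Each cell type has 3 libraries given ethanol and 3 given 50 nM 4-OHT, the drug used to delete Prmt5, for 24 h before the cells were split. Every group carries the conditional allele, so the drug and the loss of Prmt5 cannot be told apart.

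MDM2 is an E3 ubiquitin ligase that binds p53, blocks its activation domain and marks it for degradation. MDM4, also called MDMX, is a paralog that binds and blocks p53 but is a weak ligase on its own. Mdm2 is itself a p53 target, which closes a feedback loop, and its p53-responsive promoter lies in the first intron. Skipping of the Mdm4 exon usually numbered 7 gives a short form with a shifted reading frame. PRMT5 methylates Sm proteins, which are part of the small ribonucleoprotein particles of the spliceosome.

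All 4 listed events of these genes are skipped exons, and each had lower inclusion with 4-OHT. Among all listed skipped exons, lower inclusion is found for 62.2% in NPC (84 of 135) and for 78.1% in MEF (25 of 32), so the shared direction is not particular to these genes. The events concern 2 places: the 68 nt exon 7 of Mdm4, listed in NPC, and exon 3 of Mdm2, which carries the first start codon and is listed in both cell types. Every listed row has a difference in inclusion level over 0.2 and a deposited p-value under 0.05, and every event is listed in at least 2 of 3 library pairs. Listed sizes are therefore biased upward. All listed pairs of an event also have the same direction. Agreement between pairs, separation of the arms and the smallest possible permutation p therefore follow largely from the listing. A pair is 1 ethanol and 1 4-OHT library under a shared code, and the codes match no label.

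The Mdm4 exon lies at chr1:134901231-134901298 in mm9, on the minus strand, between exons of 56 and 100 nt and introns of 4415 and 763 nt. The exon, both introns and both neighbors have the lengths of exon 7 of 12 in the GENCODE transcript of Mdm4 with 12 exons, where the whole exon is coding. It is found in 5 of the 14 annotated Mdm4 transcripts. The single transcript that joins its neighbors directly is annotated as a target of nonsense-mediated decay. The sequences below are shown because they hold the change in frame that skipping makes. They come from the GENCODE M21 transcript on GRCm38, 5′ to 3′, with the skipped exon in capitals in the first and the first stop codon of the shifted frame in capitals in the second.
Mdm4 exons 6 to 8: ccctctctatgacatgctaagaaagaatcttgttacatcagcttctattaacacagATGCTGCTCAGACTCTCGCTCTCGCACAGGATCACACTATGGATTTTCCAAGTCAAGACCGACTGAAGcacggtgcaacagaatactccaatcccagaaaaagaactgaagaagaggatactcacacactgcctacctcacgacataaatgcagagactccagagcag
Mdm4 exon 6 joined to exon 8: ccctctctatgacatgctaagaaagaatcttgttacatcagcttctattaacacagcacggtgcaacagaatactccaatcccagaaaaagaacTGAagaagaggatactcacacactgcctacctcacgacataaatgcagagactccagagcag
The exon length of 68 nt leaves a remainder of 2 when divided by 3. The full reading frame of this Mdm4 transcript holds 489 codons, of which 114 whole codons lie before the exon. With the exon left out, the frame meets a TGA after 127 codons, at position 39 of exon 8 and 448 nt before the last exon junction. No protein was measured in these data.

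The Mdm2 exon is listed in 2 forms that share their upstream end. The longer form of 131 nt lies at chr10:117146710-117146840 in mm9, on the minus strand, and the shorter form of 85 nt at chr10:117146756-117146840. By the lengths of exon and introns, the longer form and the shorter form are each exon 3 of 12 in a coding transcript of their own. The upstream exon listed with the shorter form, 77 nt, does not have the length of exon 2 in that coding transcript. It has the length found in a transcript annotated as a target of nonsense-mediated decay, where the shorter form is exon 2 of 10. A transcript with a retained intron also holds the shorter form. Of the 9 annotated Mdm2 transcripts, 3 join exon 2 to exon 4 without exon 3, and none of these 3 has an annotated coding sequence. In the coding transcript of 12 exons with the shorter form, the start codon is at position 5 of the exon, and the last 81 of its 85 nt are coding. The sequences are shown for the start codons that the skipped exon holds and leaves, with the coding part of exon 3 in capitals in the first and the start codon annotated with the longer form in capitals in the second.
Mdm2 exon 3 from its start codon, joined to exon 4: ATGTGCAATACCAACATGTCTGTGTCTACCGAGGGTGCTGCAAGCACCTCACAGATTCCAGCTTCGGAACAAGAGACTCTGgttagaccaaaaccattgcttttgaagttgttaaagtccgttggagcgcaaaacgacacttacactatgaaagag
Mdm2 exon 4: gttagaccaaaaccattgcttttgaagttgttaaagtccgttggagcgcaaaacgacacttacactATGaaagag
In the longer form, the frame from the exon 3 start codon meets a TAA after 35 codons, inside the 46 nt extension of the exon. The transcript with the longer form is annotated from the ATG at position 67 of exon 4, with 440 codons in place of 489 and the same stop codon. A protein begun there lacks the first 49 codons, and the N-terminal part of MDM2 is known to bind p53. A transcript without exon 3 lacks the first start codon and keeps that of exon 4.

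**Figure D1:**
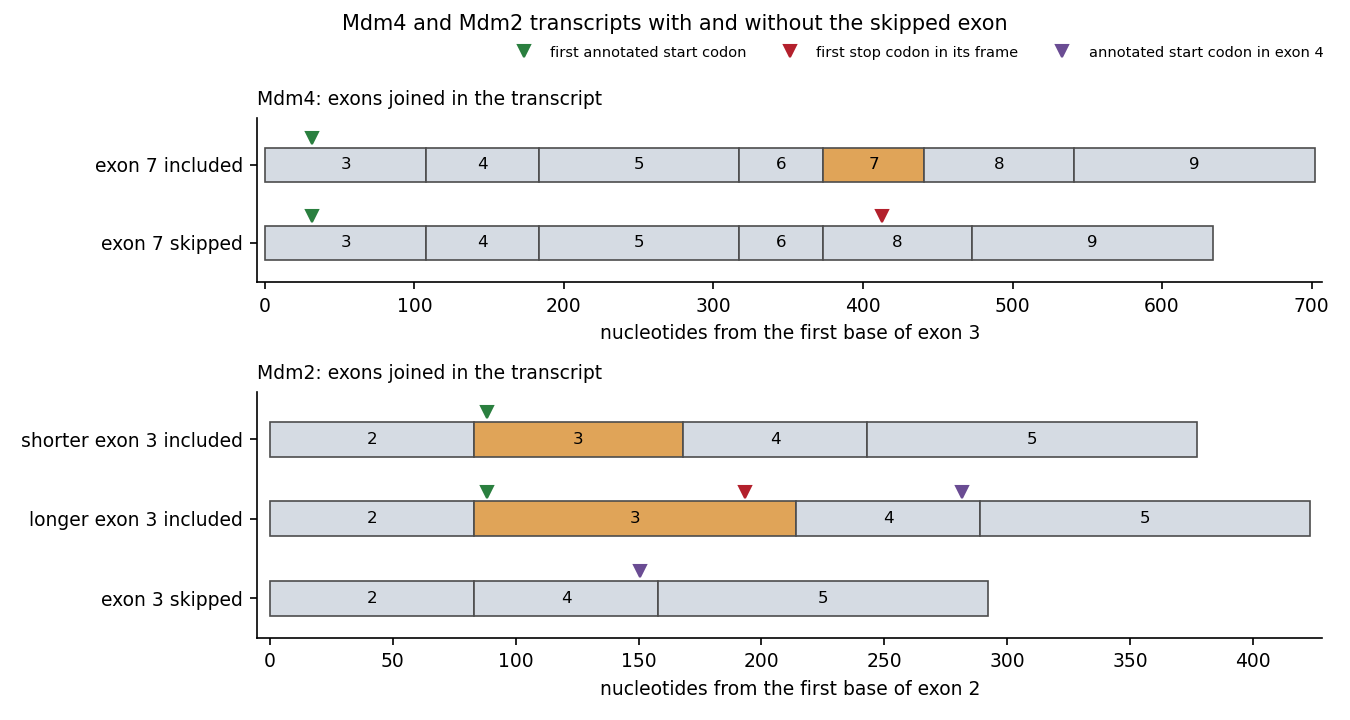
Joined exons of Mdm4 from exon 3 to exon 9 and of Mdm2 from exon 2 to exon 5, drawn to scale in nucleotides, with the skipped exon in orange and exon numbers as in the annotated transcripts of 12 exons. Triangles mark the first annotated start codon, the first stop codon in its frame where that lies within the drawn exons, and the start codon in Mdm2 exon 4; leaving out Mdm4 exon 7 places a stop codon in exon 8, and leaving out Mdm2 exon 3 removes the first start codon.

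The splice sites of the Mdm2 exon can be read in part from annotated transcripts that hold the neighboring bases. The last 20 intron bases before the exon, in capitals, and its first 3 bases are TGTTTTTTTTCTACTTGTAGgcc, taken from a transcript with a retained intron. The end of the shorter form is ctgGTTGGT, where the capitals are the 6 bases that follow it in the longer form. This inner site begins with GT, as nearly all 5′ splice sites do. The intron bases beside the Mdm4 exon were not analysed here.

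The skipped exons are not counterparts in the paralogs. Exons 4 and 5 of these transcripts of Mdm4 and Mdm2 have the same lengths, 75 and 134 nt, and are identical without gaps at 48 and 86 bases, or 64.0% and 64.2%. Mdm2 exon 3 lies before this shared stretch and Mdm4 exon 7 after it.

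Inclusion of Mdm4 exon 7 was lower with 4-OHT in all 3 NPC pairs, so that the skipped share went from 29.0 to 52.7% on average. MATS, the program for which the table is named, gives the inclusion level as a fraction of 1 after scaling reads to the length each form offers. With ethanol the levels were 0.673, 0.740 and 0.717 in the pairs coded 24, 26 and 28. With 4-OHT they were 0.431, 0.512 and 0.476 in the same order. Each ethanol library was above each 4-OHT library, which the listing rule favours. The pairs kept their order in both arms, with 24 lowest and 26 highest. The mean went from 0.710 ± 0.034 (SD, n = 3) to 0.473 ± 0.041 (SD, n = 3). The within-pair differences were -0.242, -0.228 and -0.241, with a mean of -0.237 ± 0.008 (SD, n = 3). They varied less than the levels did, but the listing limit of 0.2 bounds the differences on 1 side. Their small spread may therefore follow in part from the listing. The exact permutation test of 3 against 3 libraries gave a two-sided p of 0.1, the smallest it can give, so this design cannot pass 0.05. The p-values in the authors' deposited table, which compare 2 libraries within a pair, were 0.0341, 0.00559 and 0.00730.

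Reads behind these levels numbered 80 to 187 in an Mdm4 library. Reads with the exon went from 67, 164 and 114 with ethanol to 55, 110 and 100 with 4-OHT in pairs 24, 26 and 28. Reads that skip it went from 13, 23 and 18 to 29, 42 and 44. Reads of the skipped form were thus higher and those of the full form lower in each pair, although neither is scaled to library size. As raw shares of reads, inclusion in pair 26, the deepest, was 87.7% (95% Wilson interval 82.2 to 91.7%) with ethanol and 72.4% (64.8 to 78.9%) with 4-OHT. In pair 24, the shallowest, it was 83.8% (74.2 to 90.3%) and 65.5% (54.8 to 74.8%), and these intervals overlap. Intervals cover counting error only, since reads without molecular identifiers are not independent molecules. Mdm4 is not listed among the changed genes in either cell type, so its expression level is not known here, and none of the 71 MEF events is in Mdm4. An exon that is not listed may have differed by less than 0.2, had a higher p-value or had too few reads.

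**Figure D2:**
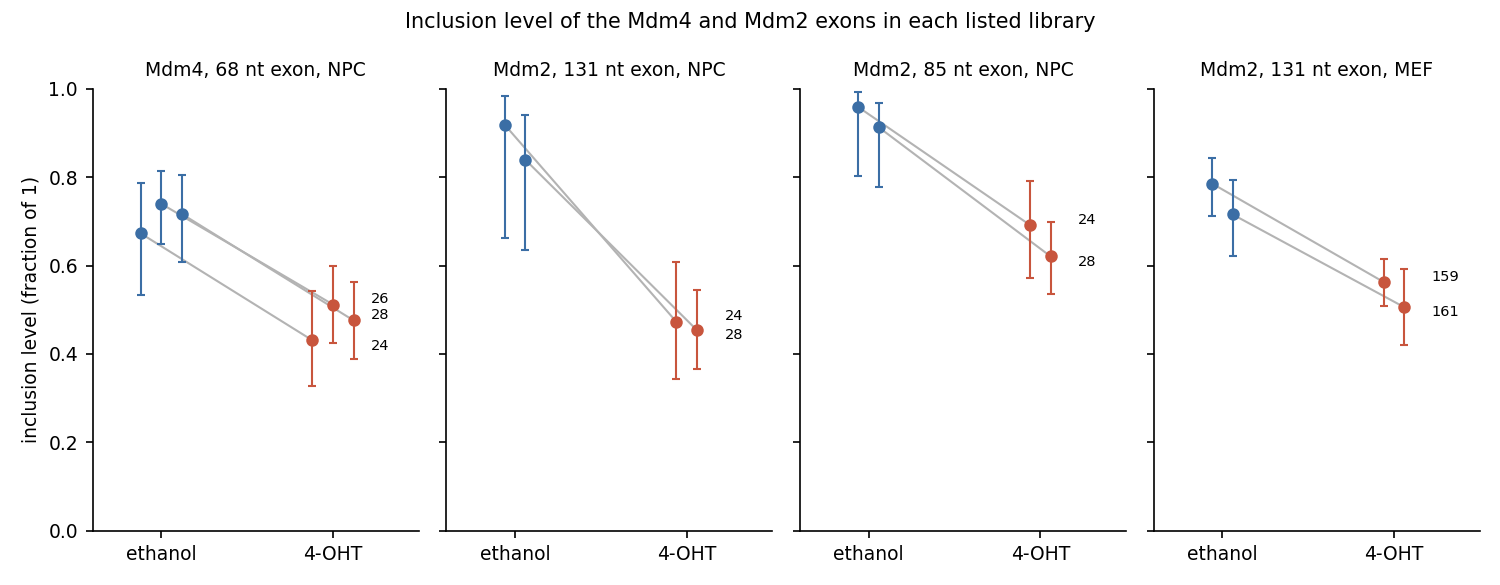
Inclusion level of the Mdm4 and Mdm2 exons in each listed library, as a fraction of 1, for ethanol (blue) and 4-OHT (red), with lines joining the libraries of a pair and pair codes at the right. Bars are 95% Wilson intervals of the read share carried onto the level scale and cover counting error only. In each of the 4 panels every 4-OHT library lies under every ethanol library, which the listing rule favours.

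Inclusion of Mdm2 exon 3 was also lower with 4-OHT in NPC, where most transcripts held the exon with ethanol. For the longer form, pairs 24 and 28 had levels of 0.919 and 0.840 with ethanol and of 0.473 and 0.454 with 4-OHT. For the shorter form the same pairs had 0.959 and 0.913 with ethanol and 0.692 and 0.621 with 4-OHT. The arms did not overlap in either form, which the listing rule favours. The mean difference was -0.416 ± 0.042 (SD, n = 2) for the longer form and -0.280 ± 0.018 (SD, n = 2) for the shorter one. With 2 libraries against 2, the exact permutation p was 0.333 for each, the smallest possible. The deposited MATS p-values were 0.00411 and 0.00167 for the longer form and 0.0127 and 0.00173 for the shorter. Pair 26 is not listed for Mdm2, so its levels are not known.

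The longer and shorter forms share their upstream end, and their inclusion reads are divided by different length factors, 4.25 and 2.97. Part of the gap between their levels and changes comes from that scaling. Both forms rest on the same skipping reads, so they are not separate evidence. These were 1 and 3 reads with ethanol in pairs 24 and 28, and 16 and 37 with 4-OHT. Reads with the exon went from 48 and 67 to 61 and 131 for the longer form, and from 70 and 93 to 107 and 180 for the shorter. Unlike Mdm4, Mdm2 thus had more reads of both kinds with 4-OHT in both listed pairs. The raw share of inclusion reads of the longer form in pair 28 was 95.7% (95% Wilson interval 88.1 to 98.5%) with ethanol and 78.0% (71.1 to 83.6%) with 4-OHT. The ethanol level rests on few skipping reads, and its interval on the level scale runs from 0.636 to 0.940.

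The longer form of Mdm2 exon 3 is listed in MEF too, with a smaller difference. Pairs 159 and 161 had levels of 0.786 and 0.716 with ethanol and of 0.563 and 0.506 with 4-OHT, again without overlap. The mean went from 0.751 ± 0.049 (SD, n = 2) to 0.534 ± 0.040 (SD, n = 2), a difference of -0.216 ± 0.009 (SD, n = 2). The exact permutation p was 0.333, the smallest that 2 against 2 libraries allow, and the deposited MATS p-values were 0.000162 and 0.0133. These libraries were deeper over the exon, with 209 to 616 reads. Skipping reads went from 26 to 95 in pair 159 and from 23 to 39 in pair 161, while inclusion reads went from 406 to 521 and from 247 to 170. Inclusion reads therefore moved in opposite directions in the 2 pairs, whereas skipping reads were higher with 4-OHT in both.

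**Figure D3:**
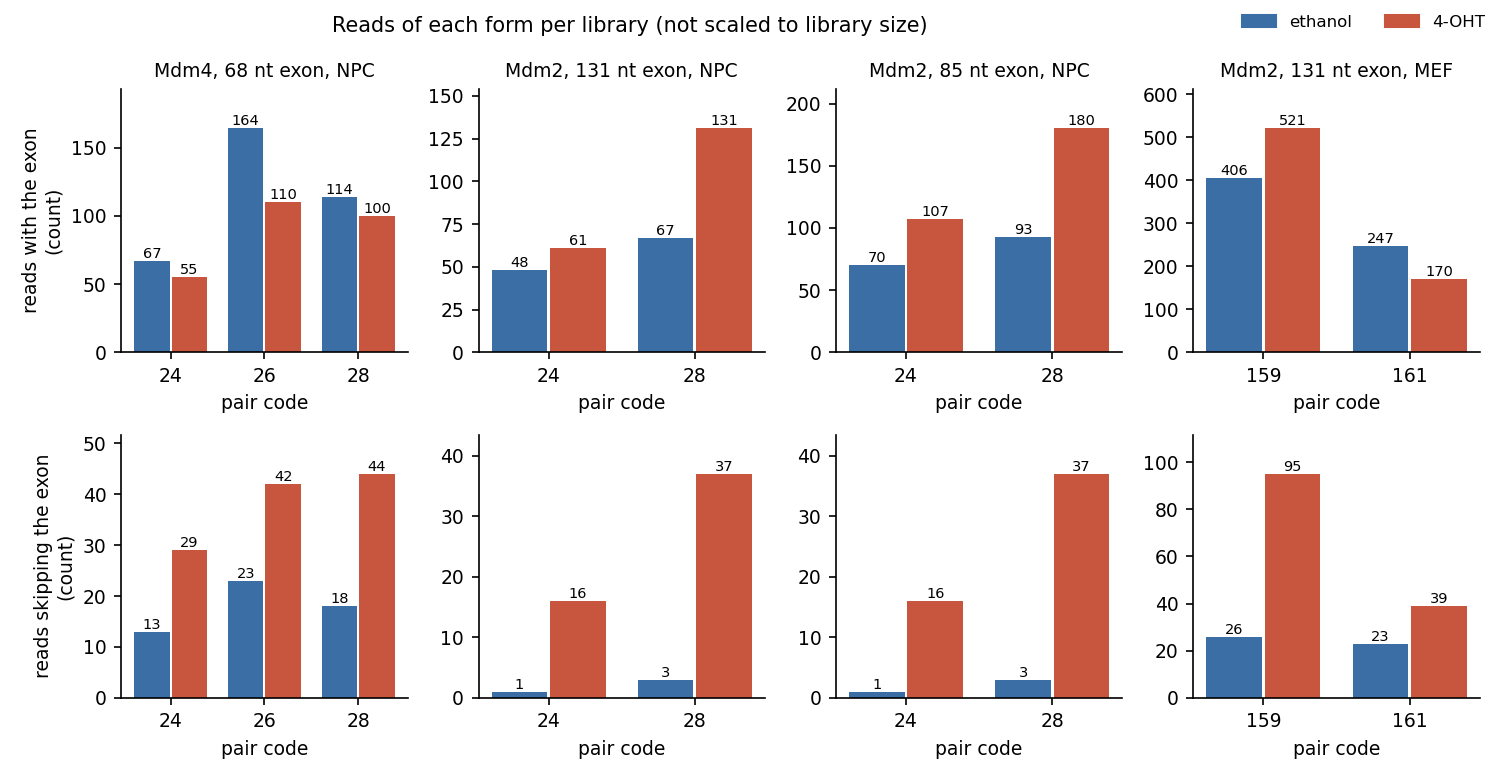
Reads with the exon (top) and reads skipping it (bottom) in each listed library by pair code, for ethanol (blue) and 4-OHT (red), as deposited counts not scaled to library size. Skipping reads are higher with 4-OHT in each pair, while reads with the exon are lower for Mdm4, higher for Mdm2 in NPC and mixed for Mdm2 in MEF.

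Between cell types, the Mdm2 difference was -0.416 in NPC and -0.216 in MEF, a gap of -0.200. In the exact permutation test of the 2 NPC against the 2 MEF pair differences the two-sided p was 0.333, the smallest possible, so a difference between cell types was not established. The ethanol levels of 0.880 in NPC and 0.751 in MEF were further apart than the 4-OHT levels of 0.464 and 0.534. The pair differences in MEF, -0.223 and -0.210, lie just inside the listing limit of 0.2. The event is 1 of 7 skipped exons listed in both cell types, which are 5.19% of the NPC exons and 21.9% of the MEF exons.

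Among the listed skipped exons, the change of the longer Mdm2 exon in NPC was larger than those of 57 of the 84 exons with lower inclusion, whereas that of the Mdm4 exon was larger than 7. By size of mean change, the Mdm4 exon ranked 123 of 135 in NPC, and the Mdm2 exon ranked 50 in its longer and 100 in its shorter form. In MEF the Mdm2 exon had the smallest change of the 32. The median change among exons with lower inclusion was -0.32 in NPC and -0.42 in MEF. The Mdm4 exon is 1 of 27 skipped exons listed in all 3 NPC pairs, of which 66.7% had lower inclusion. Its ethanol level of 0.710 was under the median of 0.847 among NPC exons with lower inclusion. None of the 3 exon lengths is a multiple of 3, which is true of 58.5% of the NPC and 34.4% of the MEF exons.

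**Figure D4:**
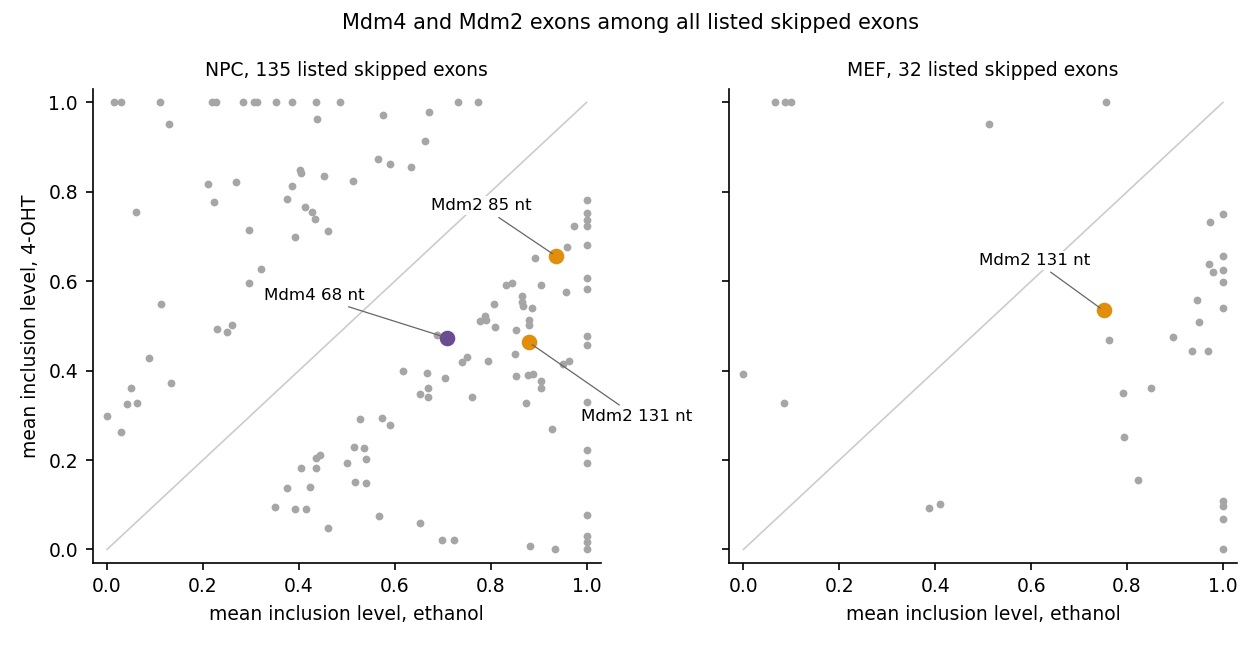
Mean inclusion level with ethanol (horizontal axis) and with 4-OHT (vertical axis), each as a fraction of 1, for every listed skipped exon in NPC (left) and MEF (right), with Mdm4 in purple and Mdm2 in orange. Points under the diagonal line had lower inclusion with 4-OHT; the empty band along the line comes from the listing limit, and the Mdm4 exon and the Mdm2 exon in MEF lie near its edge.

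Exons with the most similar levels were sought by the Euclidean distance over the same libraries. Nearest to Mdm4 exon 7, over 6 libraries and 27 exons, were a 121 nt exon of Mpdu1, a 75 nt exon of Epn1, a 76 nt exon of Nnat and a 114 nt exon of Pkd1, at distances of 0.172 to 0.219. Their mean differences of -0.321, -0.320, -0.278 and -0.309 were each larger than that of Mdm4. Nearest to the longer Mdm2 exon in NPC, over 4 libraries and 60 exons, were exons of Fibp, Tmpo, Cenpi and Nnat, at distances of 0.0441 to 0.135. The Fibp exon of 98 nt, with mean levels of 0.864 and 0.447, was closest. In MEF, with 12 exons to compare, the nearest were exons of Erbb2ip, Mettl17 and Tcof1, at distances of 0.304 to 0.347, so no exon was as close as in NPC.

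Expression of Mdm2 rose in NPC. Its level by the authors' deposited table was 18.3 RPKM (reads per kilobase of transcript, scaled to library size) with ethanol and 38.7 with 4-OHT, 1 value for each arm with no spread between libraries. The fold was 2.12 and the log2 fold change 1.08, with a Cuffdiff p-value of 2.00e-15 in the authors' deposited table. An approximate 95% interval derived from that p-value under a normal distribution is 0.81 to 1.35 on the log2 scale. Even if all 55341 annotated gene names had been tested, the Benjamini-Hochberg adjusted p would be at most 8.85e-13. In bulk RNA of this kind, fewer cells of a type and less RNA per cell cannot be told apart. Of the 1367 genes listed as higher, Mdm2 ranked 577 by log2 fold change, while 78 genes, Mdm2 included, had at least its RPKM with 4-OHT. The median log2 fold change of the higher genes was 0.99. In MEF, where exon 3 of Mdm2 had lower inclusion, Mdm2 is not listed as changed, which does not show that its level stayed the same. Of 119 genes with a listed skipped exon in NPC, 17 are also listed in expression. Of these 17, Mdm2 and 3 others were higher, against 56.6% of all 2416 listed genes. How many genes were tested is not known, so no share can be set beside the 17.

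The genes nearest to Mdm2 in the log2 RPKM of both arms, among 2406 genes above 0 in each, were Tmem38a, Itgb5, Ntm and Chst2, at distances of 0.106 to 0.169. Itgb5, an integrin subunit gene, had 16.9 and 38.7 RPKM in the authors' deposited table. These genes share 2 pooled values with Mdm2, so the likeness is a description of 2 points.

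Other genes of the p53 pathway were read from 5 lists of 105 genes, without Mdm2 and Mdm4. In NPC 35 of them are listed, 31 as higher and 4 as lower, against 56.6% higher among all 2416 listed genes. Their median log2 fold change was 1.26, against 0.66 over all listed genes. Of the p53 targets, 28 of 54 are listed and 27 of these were higher. Mdm2 was placed inside this group: 19 of the 28 had a larger log2 fold change, 9 a smaller one, and 8 had a higher RPKM with 4-OHT. These lists were drawn up with earlier results of these libraries known and are not independent evidence of direction.

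By role, 4 of 36 genes upstream of p53 and the Mdm proteins are listed in NPC, and 3 of these, the DNA damage kinase genes Atm, Chek1 and Chek2, fell. By the authors' deposited table Atm had 8.84 RPKM under ethanol and 4.99 under 4-OHT, Chek1 12.2 and 7.32, and Chek2 7.65 and 4.64. The fourth listed gene, Usp2, a deubiquitinase known to act on MDM2 and MDM4, rose, with 4.38 and 8.58 RPKM by the authors' deposited table. Trp53, Usp7 and the ribosomal protein genes Rpl5 and Rpl11, whose products bind MDM2, are not listed in either cell type. Of 15 other inhibitors and feedback genes 3 are listed and all 3 were higher. Ccng1, whose product cyclin G1 recruits a phosphatase to MDM2, rose with a log2 fold change of 1.28, Sesn2 with 1.32 and the p53 ubiquitin ligase gene Rchy1 with 0.62 in the authors' deposited table.

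Among targets of arrest 5 of 10 are listed and all 5 were higher, with a median log2 fold change of 1.18. Ptprv, a receptor-type phosphatase gene, and Cdkn1a, the gene of the p21 inhibitor of cyclin-dependent kinases, were above Mdm2, at 4.35 and 1.73 by the authors' deposited table. The Ptprv value starts from a low level, 0.138 RPKM with ethanol and 2.82 with 4-OHT in the authors' deposited table. Zmat3 and Phlda3, both direct p53 targets, came close to Mdm2, at 1.01 and 1.18 on the log2 scale by the authors' deposited table, and Gadd45a was at 0.76. Among targets of death 8 of 14 are listed and all 8 were higher. Their median log2 fold change was 1.78, from 1.08 for Lrdd, an older name of Pidd1, to 3.53 for Perp, a desmosome protein gene, in the authors' deposited table. Of 30 other targets 14 were higher and 1 lower. The lower one, Fdxr, which encodes ferredoxin reductase, is given 5.36 and 3.25 RPKM by the authors' deposited table. In MEF 1 of the 105 genes is listed, Ptprv. Its log2 fold change was 1.25, with an unadjusted Cuffdiff p-value of 0.00692 in the authors' deposited table. Its level there was low, 0.694 RPKM with ethanol and 1.65 with 4-OHT. The bound on its adjusted p, unlike that of Mdm2 in NPC, is not under 0.05.

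**Figure D5:**
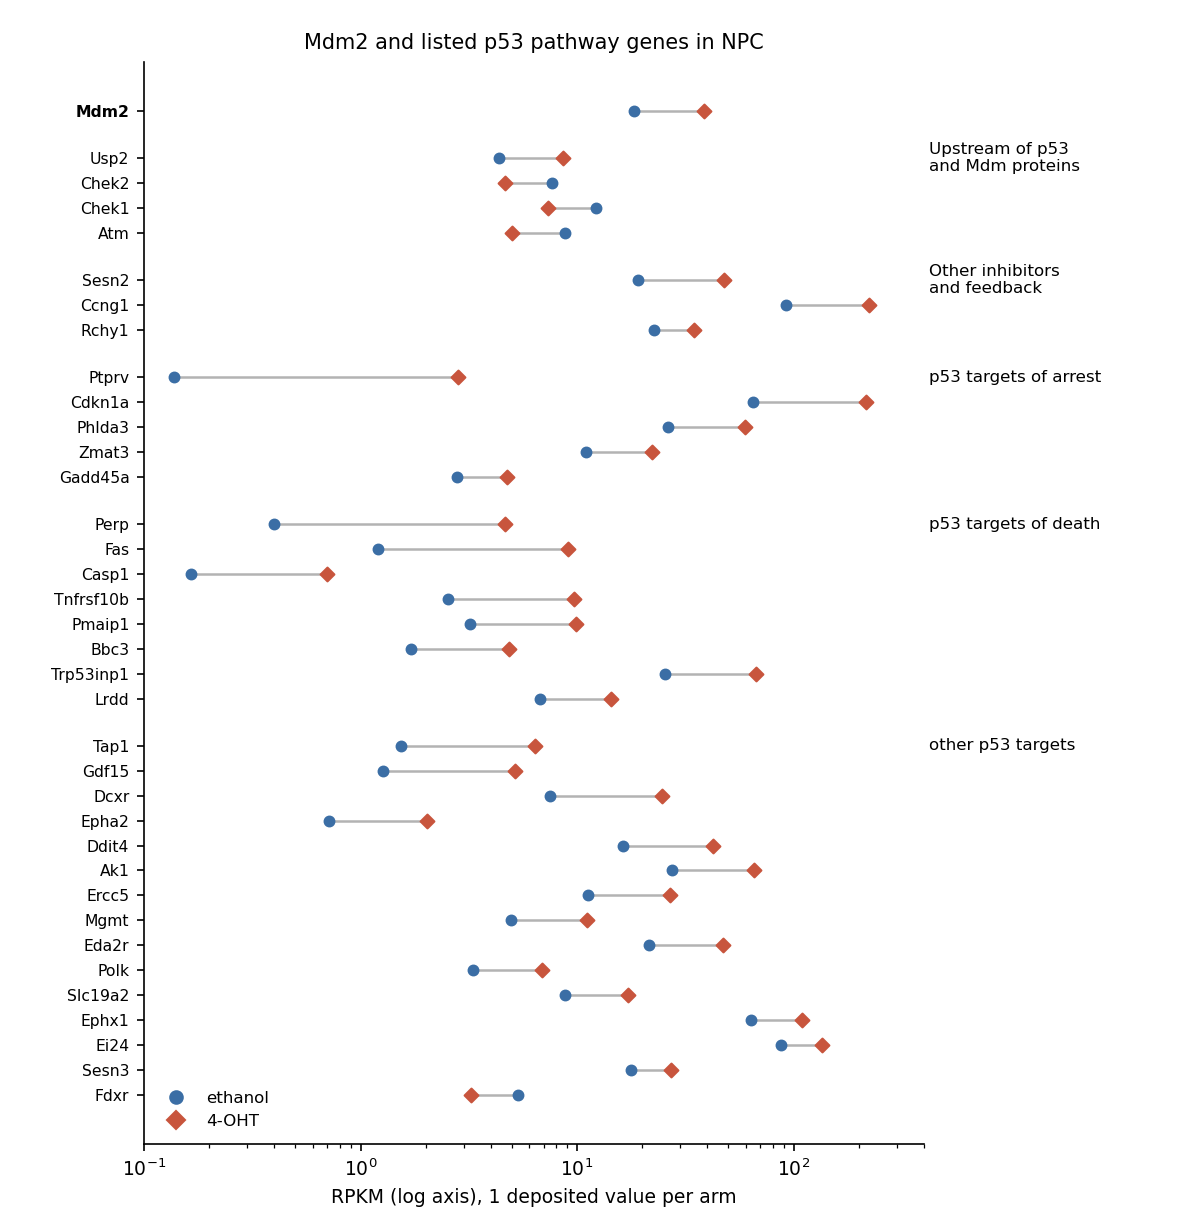
RPKM of Mdm2 and of the 35 listed p53 pathway genes in NPC on a log axis, 1 deposited value for ethanol (blue circles) and 1 for 4-OHT (red diamonds), grouped by the lists in which they were read. Mdm2, in the top line, moves from 18.3 to 38.7 RPKM; 31 of the 35 other genes lie further right with 4-OHT, and Atm, Chek1, Chek2 and Fdxr lie further left.

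For Prmt5, the gene targeted, reads of its 164 nt exon summed over 3 pairs numbered 1279 (ethanol) and 2 (4-OHT) for NPC, and 856 and 0 for MEF. The tables list changed genes only, so the cell type labels could not be checked against most markers. Of 15 progenitor markers Hes5 and Gli3 are listed in NPC, both lower and together at 19.2 RPKM with ethanol and 6.94 with 4-OHT in the authors' deposited table. Of 4 astrocyte markers 3 are listed, all higher (68.9 and 122 RPKM summed in the authors' deposited table), as are 3 of 4 oligodendrocyte markers (5.36 and 18.1 RPKM summed). Of 4 neuron markers Tubb3 and Neurod1 are listed, both higher, at 5.16 and 10.2 RPKM summed in the authors' deposited table. Listed markers of endothelium (2 of 5), fibroblasts (1 of 15) and blood (1 of 3) were higher too, each list at under 1 RPKM summed in both arms, and 0 of 5 microglia and immune markers are listed. Among all 2416 listed genes in NPC 56.6% were higher, and each marker list holds few listed genes. A change in cell types was not tested, nor was the part of these markers in the rise of Mdm2.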

How the data were processed

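The series holds 12 RNA-seq libraries, 3 in each of 4 groups. Per the submitters' processing notes, the authors used CASAVA 1.8, TopHat2 2.03, Bowtie2 2.0.0.6 and Cuffdiff 2.02 with the mm9 build. The splicing tables are named for MATS, whose version is not given in the sources used here. The authors deposited RPKM values with 1 value per arm, a log2 fold change and an unadjusted p-value per gene. They deposited, per the file headers, counts of inclusion and exclusion reads, the inclusion level as a fraction, its difference and a p-value for 1 ethanol and 1 4-OHT library per row. The tables hold no library totals, and the depth behind the RPKM values is unknown. Whether replicates are separate cultures is not labelled, and the spread behind the p-values may be technical.

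Levels were averaged over listed libraries and tested with exact permutation tests (Python 3.11.15, SciPy 1.17.1). Deposited levels correspond to reads with the exon divided by 2.50 (Mdm4), 2.97 and 4.25 (Mdm2, shorter and longer form). The bound on the adjusted p and the distances were tested on simulated data. Pair codes were checked by correlating deviations from the arm mean over events listed in 3 pairs. Same-code values were 0.123 to 0.177 over 57 NPC events and 0.232 to 0.665 over 8 MEF events. Different-code values were -0.222 to 0.0999 in NPC and -0.478 to 0.125 in MEF. Deviations from an arm mean cancel out, so same-code and different-code values are not independent. The listing rule by itself favours such same-code values, so the codes cannot be shown to mark shared cultures. Exons were matched to GENCODE M21 (GRCm38) by lengths of exon and introns, never by position. The named genes are both members, the 4 nearest genes and exons by distance, Prmt5, and listed members of the pathway lists. Members and lists were chosen with earlier results of these data known. The test of Mdm2 between cell types was added after the tables were read.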

Additional observations from a re-analysis of the deposited data

How the results depend on the processing

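The direction of every inclusion difference was the same as raw shares of reads, with reads pooled over libraries and without any single pair. Raw shares and leaving out a pair could not change it, since all listed pairs of an event have the same direction. As raw shares the differences were -0.168 for Mdm4, -0.182 and -0.128 for the longer and shorter Mdm2 exon in NPC and -0.0977 in MEF, smaller because the deposited levels divide inclusion reads by the length factor. Leaving out 1 pair gave -0.242 to -0.234 for Mdm4, -0.446 to -0.386 and -0.292 to -0.267 for Mdm2 in NPC, -0.223 to -0.210 in MEF, and -0.230 to -0.169 for the gap between cell types. With the pair code as a replicate block, the exact sign-flip p was 0.25 for Mdm4 and 0.5 for each Mdm2 exon, the smallest possible, and no call changed because none could be made. No Mdm4 value exists in MEF, so the planned MEF and between-cell comparisons of Mdm4 were not run. With 1 or 0.1 added to both RPKM values, the Mdm2 log2 fold change was 1.04 or 1.08. Requiring an absolute log2 fold change of at least 1 left 24 higher and 0 lower pathway genes. The share of higher genes among all listed genes was not computed at this limit, so these counts have nothing to be set against. Skipped exons with lower inclusion in NPC numbered 84 of 135, and 18 of the 27 listed in 3 pairs. With at least 20 reads in each arm of every listed pair they numbered 58. How many exons passed that read limit is not given here, so the smaller count does not show a smaller share.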

Other observations

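The Mdm2 level and the exon 3 level in NPC can be set together, if the mean level of the 2 listed pairs is taken as the share of transcripts in the pooled RPKM. With the longer form, transcripts with the exon come to 16.1 RPKM with ethanol and 17.9 with 4-OHT, and those without it to 2.20 and 20.8 RPKM. With the shorter form the values are 17.1 and 25.4 RPKM with the exon and 1.17 and 13.3 without it. Transcripts without the exon rest on the same skipping reads in both calculations, so the 2 sets of values cannot both hold. Neither is a measured share of transcripts. The ethanol values without the exon rest on 4 skipping reads, and no error can be given for these products.

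Of the 105 genes of the p53 pathway lists, 2 have a listed splicing event in NPC and 2 in MEF. How many genes were tested for splicing is not known, so no share can be set beside these counts. In NPC Hipk2, a kinase that phosphorylates p53, had an alternative 3′ splice site with levels of 0.762 ± 0.016 (SD, n = 2) and 1 in both 4-OHT libraries, on 21 or more reads. Trim24, which encodes a p53 ubiquitin ligase, had an alternative 5′ splice site at 0.360 ± 0.023 and 0.568 ± 0.021 (SD, n = 2). In MEF Rpl23, whose product binds MDM2, is listed with skipped exons of 84 and 236 nt that share 18 skipping reads with ethanol and 22 with 4-OHT. Its inclusion reads over the 84 nt exon numbered 1026 with ethanol and 176 with 4-OHT. Lrdd had a retained intron at 0.462 ± 0.199 and 0.920 ± 0.113 (SD, n = 2) in MEF. These levels rest on few exclusion reads, 9 with ethanol and 1 with 4-OHT. These events were read after their values were seen, and none was tested over libraries.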
